A study of Mus musculus with 4 samples.

Results

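Integrins are the cell surface receptors that fasten cells to the extracellular matrix, and the 10 subunit genes described here are those best known from epidermis and melanocytes. They were taken as a list of names, 5 alpha subunits (Itga2, Itga3, Itga5, Itga6 and Itgav) and 5 beta subunits (Itgb1, Itgb3, Itgb4, Itgb6 and Itgb8). No cut on a measured value was used, but the list was chosen with earlier results of these data known. All 10 were found by symbol among the 22524 genes counted, and all 10 passed the filter on low counts. RNA was sequenced from cells of mouse dermal hyperplasia collected before tumours formed, in 4 libraries, 2 per group. Every mouse carried Tyr::NrasQ61K, Tyr::CreERT2 and R26R-LSL-tdTomato. The tyrosinase promoter, which is active in pigment cells, therefore drove both the oncogene and the tamoxifen-dependent Cre. Cells made red by tdTomato after tamoxifen were sorted. The group Ezh2Y646N also carried ColA1-LSL-Ezh2Y646N, a Cre-dependent mutant of the histone methyltransferase Ezh2, and the group NrasQ61K did not. Ages, sexes and whether libraries came from separate or pooled animals are not stated in the labels, so the spread that p-values rest on may be technical. The comparison asks how RNA of these receptors differs between NrasQ61K cells with and without mutant Ezh2.

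As background, an integrin is a dimer of an alpha and a beta chain, and the combination sets which matrix protein it binds. In epidermis, alpha6beta4 anchors basal keratinocytes to laminin at hemidesmosomes, alpha3beta1 binds the same laminin, alpha2beta1 binds collagen and alpha5beta1 binds fibronectin. The alphav chain joins several beta chains, of which beta3 is known from melanoma invasion, and alphavbeta6 and alphavbeta8 release TGF-beta from its latent form.

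Total counts ranged from 14808801 to 20600297 per library, and the counts of single members from 108 (Itgb6) to 8137 (Itgb4). All 10 melanocyte markers examined, which include Dct, Tyr and Pmel, were detected in every library. Their summed level was 3880 and 3970 CPM (counts scaled to a library of fixed size) in Ezh2Y646N and 2656 and 3457 in NrasQ61K, with 9 of 10 log2 fold changes above 0 and 0 markers called. Summed levels of 8 basal keratinocyte markers, led by Krt5 and Krt14, were 16601 and 22362 CPM in Ezh2Y646N, against 11205 and 25684 in NrasQ61K. Of the other cell types looked for, 7 suprabasal keratinocyte markers summed to 41474 and 29466 CPM against 3484 and 8973, with 2 called higher. The 7 hair follicle markers summed to 471 and 209 CPM against 2491 and 1400, with 4 called lower (Krt25, Krt35, Krt71 and Tchh). The 8 macrophage and dendritic cell markers summed to 64.9 and 136 CPM against 148 and 379. The 6 smooth muscle and pericyte markers summed to 240 and 241 against 198 and 277, of which Cspg4 alone was 174 and 190 against 109 and 185. Of the 5 tested, 2 had log2 fold changes above 0 and 3 below, with Acta2, the actin of smooth muscle, called lower. These are bulk values, in which fewer cells of a type and less RNA per cell cannot be told apart, and the share of each integrin's RNA that came from melanocytes was not measured.

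None of the 10 integrin genes passed edgeR's threshold of an adjusted p under 0.05. Among all genes, 1.77% of 14265 tested genes did, 1.10% higher and 0.673% lower in Ezh2Y646N. Log2 fold changes of Ezh2Y646N over NrasQ61K ran from -0.87 for Itga5 to 0.24 for Itga2, with 3 above 0 and 7 below. Their median was -0.31, against -0.04 over all tested genes. An unadjusted p under 0.05 was found for 1 of 10, as it was for 14.3% of all genes. The 2 groups did not overlap in 4 members, all lower in Ezh2Y646N, and 0 members were wholly higher. Over all tested genes, 23.1% were wholly lower and 21.1% wholly higher. DESeq2 and limma voom also called 0 members. For 6 members the 95% interval of the log2 fold change lay between -1 and 1, so a difference of 2-fold or more was outside it. The other 4 were Itga5, Itgb3, Itgb6 and Itgb8, whose intervals reached further down.

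**Figure D1:**
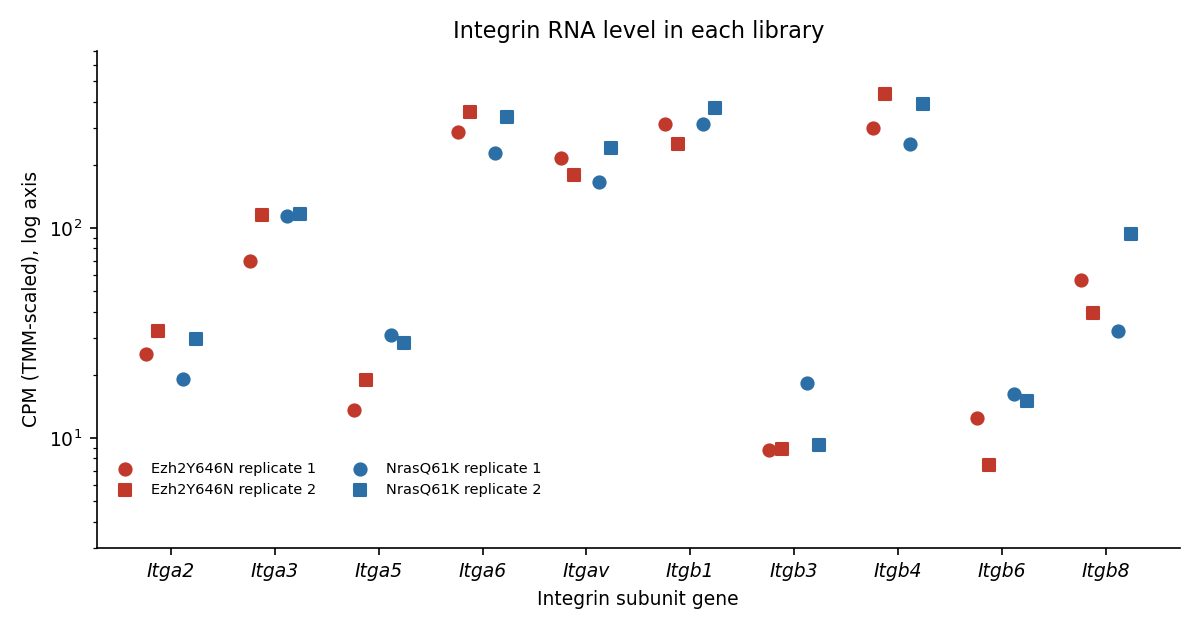
Level of each integrin gene in the 4 libraries, in TMM-scaled CPM on a log axis. Each point is 1 library. Only for Itga5, Itgb1, Itgb3 and Itgb6 do both red points (Ezh2Y646N) lie below both blue points (NrasQ61K), by 312 against 315 CPM at the closest for Itgb1.

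**Figure D2:**
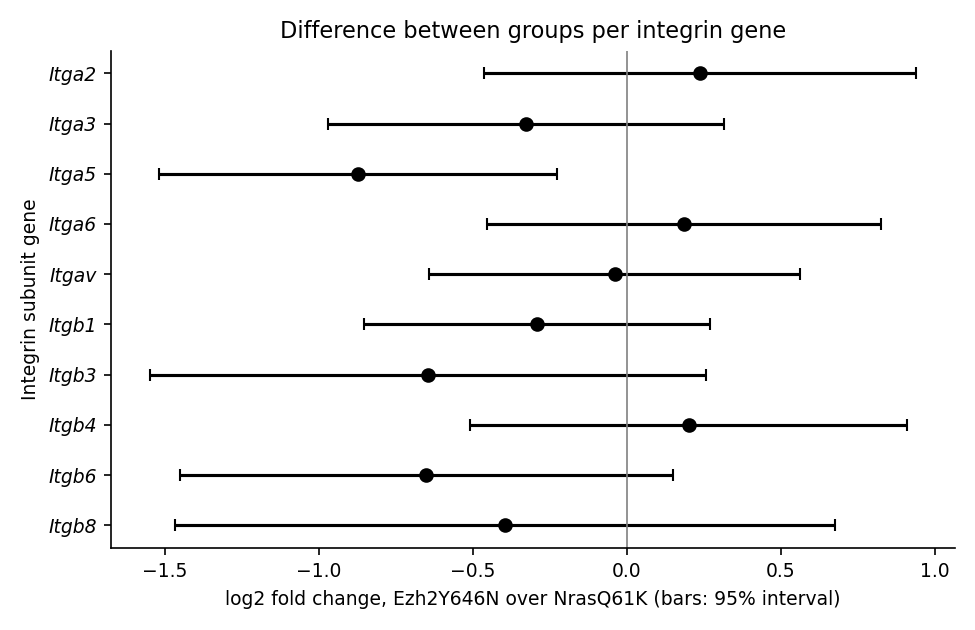
Log2 fold change of each integrin gene, Ezh2Y646N over NrasQ61K, with its 95% interval from edgeR's quasi-likelihood fit (2 libraries per group). The interval of Itga5, -1.52 to -0.23, is the only one that leaves out 0, and its adjusted p was 0.187.

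Itga5 (ENSMUSG00000000555, GRCm38 chromosome 15, 103344286 to 103366763, minus strand), the alpha chain of the fibronectin receptor, had the lowest p of the members. Its level was 13.6 and 18.9 CPM in Ezh2Y646N and 30.9 and 28.5 CPM in NrasQ61K. Both Ezh2Y646N values were below both NrasQ61K values, with means of 16.2 ± 3.74 and 29.7 ± 1.71 CPM (SD, n = 2 per group). On the log2 scale the difference was -0.87 (SE 0.28), which is 0.546 times the NrasQ61K level, with edgeR's p at 0.0145 before adjustment and 0.187 after. Its sign was negative in 12 of 12 alternative fits, all made from these same libraries. As the groups did not overlap, leaving out 1 library could hardly turn the sign. Fibronectin itself, Fn1, was 1 of the 2 ligands called lower, as given with the ligands. Markers of fibroblasts and endothelium, cells that also use alpha5beta1, all had log2 fold changes below 0. All 9 fibroblast markers were wholly lower and 1 was called, with a summed level of 812 and 2026 CPM against 4033 and 2358. None of the 9 had a zero count in any library. The 8 endothelial markers summed to 163 and 108 CPM against 246 and 231, with 6 wholly lower, 0 called and none at 0. Of all tested genes, 23.1% were wholly lower and 0.673% called lower. The part of fibroblasts and endothelial cells in the Itga5 values was not tested.

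Itgb1 (ENSMUSG00000025809, chromosome 8, 128685654 to 128733200, plus strand) encodes the beta1 chain that pairs with alpha2, alpha3, alpha5, alpha6 and alphav. Its levels were 312 and 251 CPM in Ezh2Y646N and 315 and 375 in NrasQ61K. The gap between the groups was narrower than the gap between the libraries of either group, and the log2 fold change was -0.29 (SE 0.24, edgeR's adjusted p = 0.691). The 95% interval ran from -0.85 to 0.27.

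The promoters of Itga5 and Itgb1, which together make the fibronectin receptor, are shown as the 250 bases before the RefSeq start (GRCm38.p6). Each runs 5′ to 3′ on the gene's strand. Both genes were wholly lower in Ezh2Y646N, Itgb1 only by 312 against 315 CPM at the closest, and neither was called. Itgb6 was also wholly lower, and its window is not shown. The RefSeq table held a promoter for 7 of the 10 members and none for Itga6, Itgb3 and Itgb4. Capitals mark the GC box, GGGCGG on either strand, a motif that Sp factors bind.
Itga5, chr15:103366792-103367041, minus strand: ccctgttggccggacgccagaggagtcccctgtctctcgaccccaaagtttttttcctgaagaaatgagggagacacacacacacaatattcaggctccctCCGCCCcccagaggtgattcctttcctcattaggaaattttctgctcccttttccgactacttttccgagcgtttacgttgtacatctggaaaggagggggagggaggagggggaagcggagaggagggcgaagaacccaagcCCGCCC
Itgb1, chr8:128685404-128685653, plus strand: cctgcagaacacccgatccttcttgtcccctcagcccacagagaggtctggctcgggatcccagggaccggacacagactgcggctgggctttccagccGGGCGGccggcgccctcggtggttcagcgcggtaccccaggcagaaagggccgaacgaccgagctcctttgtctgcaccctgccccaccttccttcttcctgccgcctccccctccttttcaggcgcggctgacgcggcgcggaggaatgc
The Itga5 window held 2 GC boxes, the Itgb1 window 1 and the Itga3 window 3, and the other 4 windows held none. The motif was present in 33% of 27018 promoter windows of the same length. The CCAAT box (CCAAT, in 34.5% of all windows) was found only in the Itgb8 window. The RefSeq start of Itgb8 lies inside the GENCODE gene (-526 bases from its start), so that whole window is within the annotated gene. For Itga3 (-87) and Itgb6 (-40) a part of the window is. None of the 7 windows held TGANTCA (AP-1, in 6.85%), TATAAA (in 13.0%) or CACGTG (the E-box that MITF binds, in 6.04%), on either strand. No window held more than 1 kind of these motifs. CpG dinucleotides, in which promoters bound by Polycomb are known to be rich, numbered 11 in the Itga5 window and 21 in that of Itgb1. The windows of Itga2, Itga3, Itgav, Itgb6 and Itgb8 held 12, 22, 18, 11 and 12. All 7 were above the median of 6 over all windows, so this is not particular to the 2 genes shown. These are counts of letters in 1 window per gene and say nothing of binding in these cells.

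Itga6 (ENSMUSG00000027111, chromosome 2, 71745616 to 71858416) and Itgb4 (ENSMUSG00000020758, chromosome 11, 115974709 to 116008412), the chains of the hemidesmosome integrin, did not differ detectably between groups. Itga6 was at 287 and 357 CPM in Ezh2Y646N and at 227 and 340 in NrasQ61K. Itgb4 was at 301 and 437 CPM in Ezh2Y646N and at 252 and 390 in NrasQ61K. For both genes the groups interleaved, with replicate 2 of each group high and replicate 1 low. The log2 fold changes were 0.18 (SE 0.28, edgeR's adjusted p = 0.853) for Itga6 and 0.20 (SE 0.31, 0.857) for Itgb4. Of the exon bases of Itgb4, 7.66% are shared with a gene on the opposite strand, as are 5.9% of those of Itgav. Neither of these opposite genes has a row in the files and the strand setting of the counting is not given in the sources used here, so reads there may not be the integrin's own.

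Itga3 (chromosome 11, 95044474 to 95076801), the laminin-binding partner of beta1, was at 69.5 and 115 CPM in Ezh2Y646N and at 115 and 117 in NrasQ61K. Only replicate 1 of Ezh2Y646N stood apart, and the difference on the log2 scale, -0.33 (SE 0.28, adjusted p = 0.70 by edgeR), was -0.01 without it. Itga2 (chromosome 13, 114833081 to 114932100), the collagen-binding chain, was at 25.1 and 32.3 CPM against 19.0 and 29.5. Its groups interleaved like those of Itga6, and the difference was 0.24 on the log2 scale (SE 0.30, adjusted p = 0.822 by edgeR).

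Itgav (chromosome 2, 83724397 to 83806916), the chain shared by the receptors for vitronectin and latent TGF-beta, was the member with the smallest difference. It was at 215 and 179 CPM in Ezh2Y646N and at 165 and 240 in NrasQ61K, so that the NrasQ61K libraries lay on either side of both others. The log2 fold change was -0.04 (SE 0.26, edgeR's adjusted p = 0.968), with a 95% interval of -0.64 to 0.56.

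Of the beta chains that join alphav, Itgb3, Itgb6 and Itgb8 were each below Itgav in every library. Itgb3 (chromosome 11, 104608000 to 104670476) was at 8.74 and 8.84 CPM in Ezh2Y646N and at 18.3 and 9.30 in NrasQ61K. A single library, replicate 1 of NrasQ61K, was high, and without it the difference of -0.65 (log2 scale, SE 0.39, adjusted p = 0.546 by edgeR) was -0.08. Beta3 is also the chain of the platelet receptor. Its platelet partner Itga2b was at 2.76 to 6.0 CPM and Pf4 at 0.345 to 1.90, and the platelet markers Gp9 and Treml1 had 0 counts in all 4 libraries. The 6 platelet genes summed to 4.83 and 4.35 CPM in Ezh2Y646N against 8.47 and 5.13 in NrasQ61K, and 4 of them were at 0 in at least 1 library. Their part in the Itgb3 values was not tested.

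Itgb6 (chromosome 2, 60598292 to 60722643), a chain of epithelial cells, was at 12.5 and 7.46 CPM in Ezh2Y646N and at 16.3 and 15.1 in NrasQ61K. Its groups did not overlap, with the lowest value in replicate 2 of Ezh2Y646N. The log2 fold change was -0.65 (SE 0.34, edgeR's adjusted p = 0.47), and -0.34 without that library. Itgb8 (chromosome 12, 119158022 to 119238802), known from melanocytes, glia and other cells, was at 56.6 and 39.6 CPM in Ezh2Y646N and at 32.3 and 94.3 in NrasQ61K. The NrasQ61K libraries held both its lowest and its highest value, 2.92-fold apart. Its difference of -0.40 (log2 scale, SE 0.46, adjusted p = 0.802 by edgeR) became -0.97 when NrasQ61K replicate 1 was left out and 0.62 when NrasQ61K replicate 2 was, so these libraries give it no direction.

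**Figure D3:**
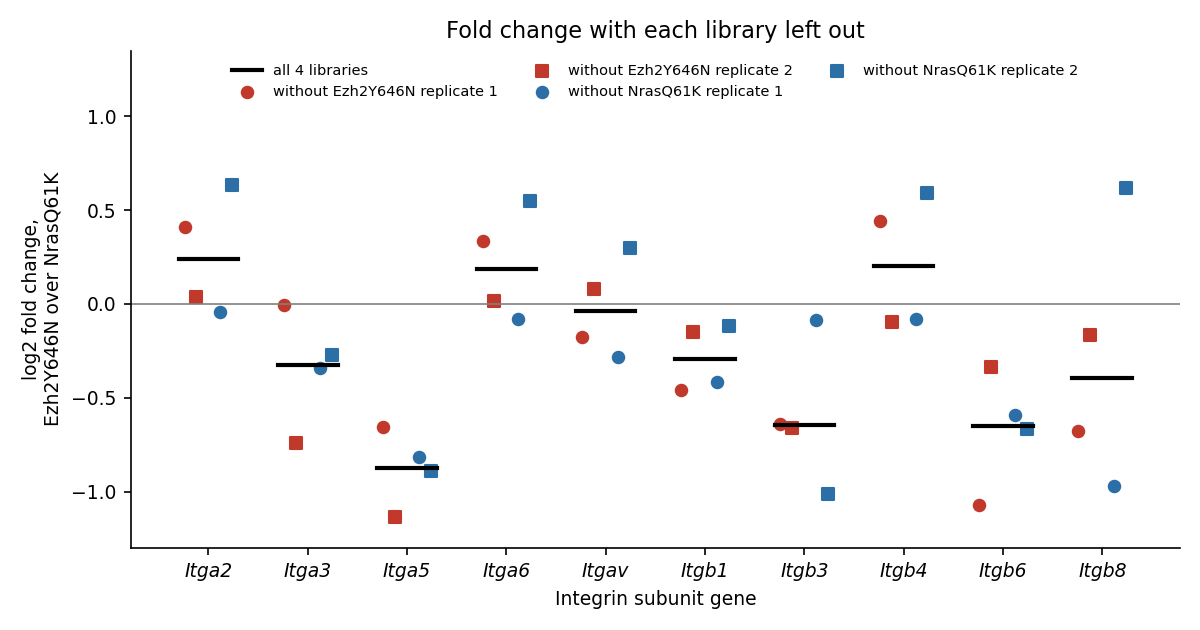
Log2 fold change of each integrin gene with all 4 libraries (black bar) and with each library left out in turn (points, coloured by the group of the library left out). Itga5 stays between -1.14 and -0.65, while Itgb8 moves from -0.97 to 0.62.

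Levels of different genes are compared here per length, as FPKM, which is the CPM divided by the length of the annotated exons in kilobases. That length takes in all annotated exons of a gene, used in these cells or not, so comparisons between genes depend on the annotation. Itgb1 was the most abundant member, at a mean of 76.8 FPKM over the 4 libraries (61.4 to 91.9). Itgb4 followed at 49.2 (35.9 to 62.3) and Itga6 at 33.5 (25.1 to 39.6), and the ranges of these neighbours overlapped. A gap separated Itga6 from Itgav at 18.6 FPKM (15.4 to 22.3) and Itga3 at 18.2 (12.2 to 20.4), which overlapped each other. After a second gap came Itgb8 at 5.04 FPKM (2.92 to 8.52), Itga5 at 4.65 (2.75 to 6.26) and Itga2 at 3.71 (2.67 to 4.53). The lowest were Itgb3 at 1.91 FPKM (1.48 to 3.09) and Itgb6 at 1.80 (1.05 to 2.29), and from Itgb8 down each neighbour overlapped the next. By mean FPKM, Itgb1 and the chains of alpha6beta4 were thus the most abundant members, and Itgb3 and Itgb6 the least.

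Within known dimers, the 2 chains of the hemidesmosome integrin kept a narrow ratio. Itga6 RNA was 0.741 and 0.635 times that of Itgb4 per length in Ezh2Y646N and 0.70 and 0.677 times in NrasQ61K. Against Itgb1, the ratio of Itga6 was wider, from 0.326 to 0.644. Itgb1 exceeded each of its other alpha chains per length in every library, by 3.05 to 6.29 times for Itga3, 3.68 to 5.01 times for Itgav, 12.3 to 27.8 times for Itga5 and 13.6 to 28.9 times for Itga2. Itgav in turn exceeded 3 of its beta partners, with ratios of 4.97 to 14.2 over Itgb3, 6.71 to 15.9 over Itgb6 and 2.62 to 5.27 over Itgb8. These are ratios of RNA and not of assembled receptors, and their size depends on the annotated exon lengths.

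The members fell into different patterns across the libraries. The nearest patterns, by the Euclidean distance between log2 CPM centred on each gene's mean over the 4 libraries, were those of Itga2 and Itga6 at 0.0783, Itga2 and Itgb4 at 0.131 and Itga6 and Itgb4 at 0.160. These 3 genes were highest in Ezh2Y646N replicate 2, then NrasQ61K replicate 2, Ezh2Y646N replicate 1 and NrasQ61K replicate 1, an order picked out after the values were seen and shown by 4.96% of all tested genes. The next nearest were Itgav and Itgb1 at 0.343, and Itgb8 was the farthest from any other member, at 0.762 from Itgav. Genes of the hemidesmosome, the junction that holds alpha6beta4, had the order of Itga6 in 3 of 4 cases. Col17a1, its transmembrane collagen, was at 1702 and 3090 CPM in Ezh2Y646N and at 1121 and 2433 in NrasQ61K. The linker proteins Plec and Dst had the same order, and the tetraspanin Cd151 did not. Of the 8 basal keratinocyte markers 3 had it, Krt15, Lgals7 and Sfn, while Krt5, Krt14, Trp63, Cdh3 and Perp did not. The order was also that of 2 of 5 tested smooth muscle and pericyte markers, Cspg4 and Myh11, and of 1 of the 10 melanocyte markers. All these genes share 4 libraries and their depths, and whether the amount of basal keratinocyte RNA in a library set its alpha6beta4 level was not tested.

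**Figure D4:**
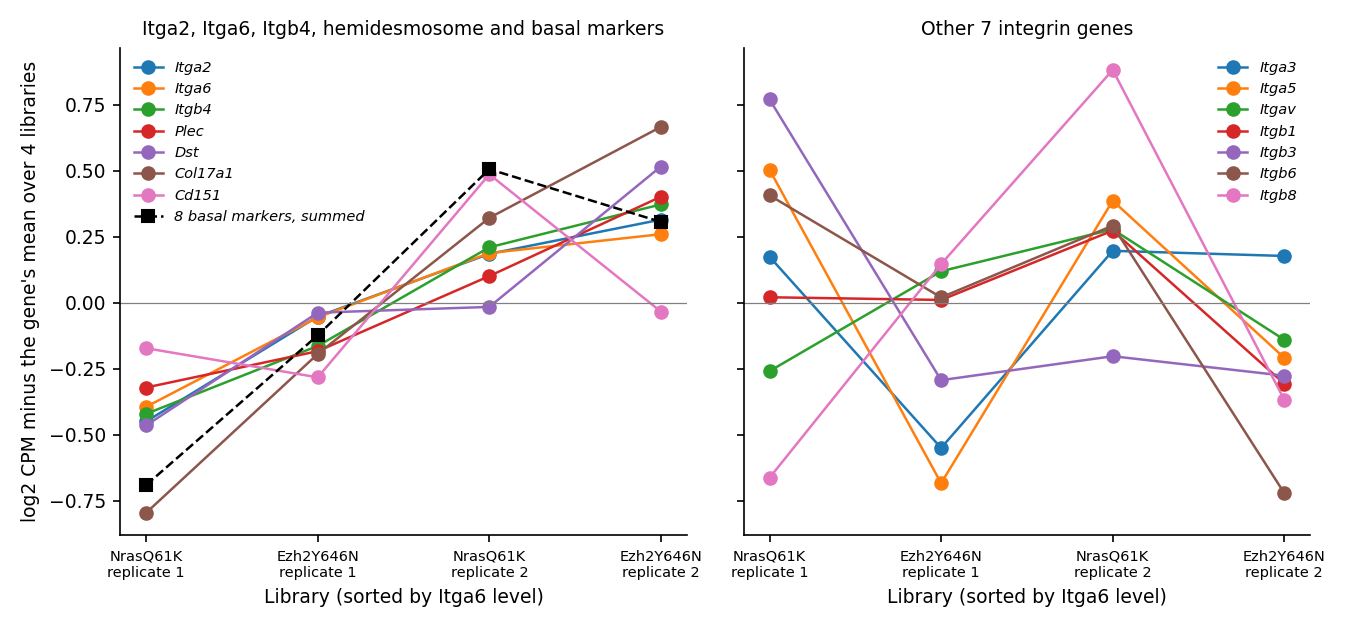
Level of each gene in the 4 libraries as log2 CPM minus its own mean, with libraries sorted by the level of Itga6. Itga2, Itga6 and Itgb4 (left) run close to each other and climb in the same order as Plec, Dst and Col17a1, but Cd151 and the summed 8 basal keratinocyte markers (dashed) peak in NrasQ61K replicate 2. None of the other 7 integrins (right) has this order.

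Among 15 tested integrins outside the 10 members, 0 passed, 4 had log2 fold changes above 0 and 11 below, and the median was -0.61. The most abundant were Itgb5, Itga9 and Itgb2, at 35.5, 3.21 and 2.21 FPKM. Itga9, a tenascin C receptor chain, was at 19.9 and 19.1 CPM against 29.1 and 30.5, and Itgb2, the beta chain of leukocytes, at 2.07 and 5.73 against 7.33 and 11.8. Itgb5, a further partner of alphav, therefore stood above Itgav, Itgb3, Itgb6 and Itgb8 in mean FPKM. It was at 129 and 140 CPM in Ezh2Y646N and at 106 and 130 in NrasQ61K (log2 fold change 0.19, SE 0.22, edgeR's adjusted p = 0.80). The lowest p-values belonged to Itga11, a collagen receptor chain of fibroblasts (-1.95, SE 0.56, edgeR's adjusted p = 0.149), and to Itga4, a chain of leukocytes and neural crest cells (0.78, SE 0.27, 0.223). Itga11 was at 1.26 and 2.0 CPM against 8.47 and 4.17, and Itga4 at 24.6 and 28.6 against 16.8 and 14.2, with no overlap between groups in either.

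Of 23 tested matrix ligands 2 were called lower and 0 higher, against 0.673% and 1.10% of all tested genes. Log2 fold changes were below 0 for 17 and above 0 for 6, with a median of -0.41. The groups did not overlap for 10 lower and 3 higher ligands, as for 23.1% and 21.1% of all tested genes. Fn1, the ligand of alpha5beta1, was at 108 and 122 CPM in Ezh2Y646N and at 321 and 285 in NrasQ61K (-1.40, SE 0.22, edgeR's adjusted p = 0.0343). Tnc, or tenascin C, a ligand of several alphav integrins, was at 51.4 and 74.7 CPM against 168 and 301 (-1.90, SE 0.34, edgeR's adjusted p = 0.0424). Tnc kept its call without Ezh2Y646N replicate 2 and Fn1 did not, and without Ezh2Y646N replicate 1 no ligand passed. The fibroblast markers given beside Itga5, of which Col1a1, Col1a2 and Col3a1 are also in this ligand list, were lower in the same libraries, and their part in the Fn1 and Tnc values was not tested. Lama3 and Lamb3, chains of a laminin that alpha3beta1 and alpha6beta4 bind, did not pass. Lama3 was at 266 and 296 CPM against 265 and 245 (log2 fold change 0.14, edgeR's adjusted p = 0.859), and Lamb3 at 153 and 222 against 65.5 and 181 (0.60, 0.644). For Lama3 both Ezh2Y646N values were the higher, by a narrow gap, and for Lamb3 the groups overlapped.

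Genes that act at or below the integrin's inner face also gave no call. Of 28 adhesion complex genes 0 passed, 1 had an unadjusted p under 0.05 with a higher value and 7 with a lower one, and the median log2 fold change was -0.31. The actin crosslinker Actn1 was at 136 and 158 CPM in Ezh2Y646N and at 255 and 509 in NrasQ61K (-1.38, SE 0.34, edgeR's adjusted p = 0.101). Zyx, which encodes zyxin of focal adhesions, was at 35.3 and 57.9 CPM against 86.6 and 104 (-1.03, SE 0.29, edgeR's adjusted p = 0.137). In this list 14 genes were wholly lower and 2 wholly higher in Ezh2Y646N, where 23.1% and 21.1% of all tested genes were, and 14.3% of all tested genes had an unadjusted p under 0.05. Of the 4 hemidesmosome genes 0 passed, with log2 fold changes of 0.49 for Dst, 0.43 for Col17a1, 0.23 for Plec and -0.35 for Cd151.

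Genes of latent TGF-beta, which alphavbeta6 and alphavbeta8 activate, moved in neither direction past the threshold. Of 12 tested 0 passed, and the median log2 fold change was -0.45. The ligand Tgfb3 was nearest to a call, at 90.6 and 47.0 CPM in Ezh2Y646N against 16.1 and 21.9 (1.86, SE 0.36, edgeR's adjusted p = 0.0507). Among fits on all 4 libraries, Tgfb3 passed with total counts as scale, in DESeq2 and without the filter on low counts. It also passed with the stricter filter (2 libraries with at least 1 CPM and 50 counts in all) and with the replicate number as a block. RLE scaling, limma voom and the fit that was not robust gave no call for it. Ltbp3, which stores latent TGF-beta in the matrix, was at 102 and 133 CPM against 197 and 266 (-0.98, SE 0.26, edgeR's adjusted p = 0.117). Every library of Ezh2Y646N was on the same side for both genes, higher for Tgfb3 and lower for Ltbp3.

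**Figure D5:**
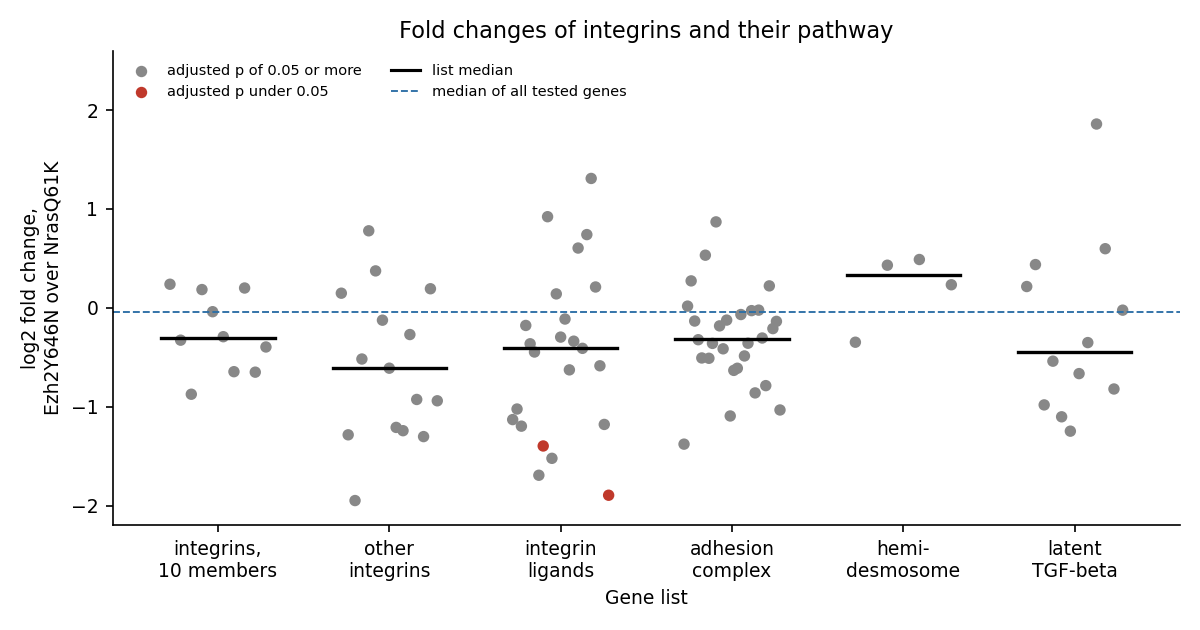
Log2 fold change of each tested gene in the 10 integrins and 5 related lists, Ezh2Y646N over NrasQ61K, with list medians (black bars) and the median of all tested genes, -0.04 (dashed line). The only genes past the threshold (red) are the ligands Fn1 and Tnc.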

How the data were processed

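The authors deposited whole-number read counts per Ensembl gene with no normalization, per the file headers and values. Tools listed in the submitters' processing notes, with no role given, are STAR 2.5.4b, featureCounts, Trimmomatic, bcl2fastq 2.19 and edgeR, and the build is GRCm38. Which annotation release and strand setting the counting used is not given in the sources used here. Symbols, positions and exon lengths came from GENCODE M21 (GRCm38), which held 22214 of 22524 identifiers. The test used edgeR 4.0.16 in R 4.3.3, after filterByExpr (minimum 10 counts, 15 over all libraries) and TMM scaling. It was a robust quasi-likelihood fit with group as term and 2 residual degrees of freedom. Benjamini-Hochberg adjustment was over all genes tested. A check on simulated data required that the fit return set fold changes near their size, and required nothing of the adjusted p. SEs came from the fold change and F statistic, and 95% intervals from the t distribution with the fit's degrees of freedom. Replicate numbers did not enter the fit. Alternatives used limma 3.58.1, DESeq2 1.42.0, other scaling, filters and fewer libraries. The members and lists were chosen with earlier results of these data known. Named were all members, called list genes or else the 2 of smallest p, Lama3, Lamb3, the hemidesmosome genes, Itgb5 and the 3 most abundant other integrins. A further ligand is not reported here. Of the marker lists, basal keratinocyte, melanocyte, fibroblast, endothelial and platelet genes are set beside the members they bear on.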

Additional observations from a re-analysis of the deposited data

How the results depend on the processing

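Of the 10 integrins, 5 kept their sign in all 12 alternatives: Itga3, Itga5, Itgb1, Itgb3 and Itgb6. In all of these but Itga3 the groups did not overlap, so leaving out 1 library could hardly turn the sign. The other 5 turned when 1 library was left out, and with each library left out their log2 fold changes ran from -0.044 to 0.63 for Itga2, -0.079 to 0.55 for Itga6, -0.28 to 0.30 for Itgav, -0.10 to 0.59 for Itgb4 and -0.97 to 0.62 for Itgb8. Without NrasQ61K replicate 1, Itga2 was at -0.044, Itga6 at -0.079 and Itgb4 at -0.082. Without Ezh2Y646N replicate 2, Itgb4 was at -0.10 and Itgav at 0.08, and without NrasQ61K replicate 2 Itgav was at 0.30 and Itgb8 at 0.62. The cause was not tested.

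Replicate numbers are shared between groups, but no label says what a number stands for, and same-numbered libraries deviated together only weakly (r = 0.0950 across genes). With the replicate number as a block, 1 integrin passed, Itga5 (log2 fold change -0.89, edgeR's adjusted p = 0.0331, over all alternatives 0.0331 to 0.70), beside 1337 of all genes, 7 ligands, 4 adhesion complex genes, 4 latent TGF-beta genes and 2 other integrins. In the other 11 alternatives 0 integrins of the 10 passed.

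Without the filter on low counts 1302 genes passed, with 9 ligands, 3 adhesion complex, 4 latent TGF-beta and 2 other integrin genes. DESeq2 called 927 genes, with 5, 2, 3 and 1 in the same lists. Leaving out 1 library gave 92 to 1123 genes (92 without Ezh2Y646N replicate 1, 440 without NrasQ61K replicate 1, 1123 without NrasQ61K replicate 2), with 0 to 8 ligands, 0 to 1 adhesion complex gene, 0 to 3 latent TGF-beta genes and 0 to 1 other integrin. The lone library of a group is then assumed to vary like the other group. Of latent TGF-beta genes, 1 passed with total counts and 1 with the stricter filter. Total counts without scaling factors shifted the median of all genes by -0.12, and no integrin changed sign under it. With 2 libraries per group, the median SE of the 10 integrins was 0.29 on the log2 scale, which limits what could be called.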
